A study of Mus musculus with 10 samples.

Results

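ATF4 and 9 of its target genes were read in sorted B cells from the spleens of 10 C57BL/6 mice. The genes were chosen by name: Atf4 itself, the stress factors Ddit3, Trib3 and Chac1, the enzymes Asns, Psat1, Phgdh, Shmt2 and Mthfd2, and the transporter Slc7a11. They are 10 of the 46316 genes counted. All 10 were among the 17718 genes with enough counts to be tested, Trib3 through its levels in pBIC and YC and Chac1 only with YC included.

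The tested cells came from 3 groups. The pBIC10 group (3 mice: replicates 1 and 2 female, replicate 3 male) held B220+GFP+ lymphoma cells of the genotype p53F/F, Blimp1F/F, IKK2castopF/stopF, Cg1Cre/+ and IL-10F/F, a model of ABC-type diffuse large cell lymphoma (ABC, activated B cell-like) in which the cells lack IL-10. The pBIC group (3 females) carried the same alleles except the floxed Il10, so its lymphoma cells can make IL-10. The YC group (4 mice: replicate 3 male, the others female) had YFPstopF/+ and Cg1Cre/+ only and held B220+YFP+ normal germinal centre B cells; these mice received sheep red blood cells in 2 immunisations 20 days apart and were sampled 10 days after the second. All 3 groups carry Cre at the Cγ1 locus, so the alleles recombine in B cells that transcribe it, chiefly in germinal centres. Lymphoma mice were moribund when sampled, and ages were not given in the sources used here. Some label fields of YC repeat the lymphoma wording, and the series description was followed.

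ATF4 is the main transcription factor of the integrated stress response. Kinases that sense amino acid shortage, unfolded proteins, missing haem or double-stranded RNA phosphorylate the initiation factor eIF2α, which slows general translation while favouring translation of the Atf4 messenger RNA. The Atf4 messenger level therefore need not follow the amount of ATF4 protein, which was not measured here. ATF4, often paired with a C/EBP factor, induces genes that import or make amino acids, among them the enzymes that build serine and pass its carbon unit to folate, a supply that dividing lymphocytes use for nucleotides. Under lasting stress it also induces the death-promoting factor CHOP and the pseudokinase TRIB3.

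The element that ATF4 and C/EBP factors bind together is usually written TGATGNAA. It was searched on both strands of RefSeq promoter windows of GRCm38.p6, which run from 250 bases before a gene's start to 50 bases past it; the counts themselves were made on GRCm39. It stood in the windows of 4 of the 10 genes, Chac1, Trib3, Slc7a11 and Asns, against 4.51% of 27025 genes with a window and 3.05% of the 11346 of those that were tested. Because the 10 genes were chosen by name as ATF4 and its targets, nothing is read from the difference between these shares. The windows of the 4 genes are printed because 2 of these genes, Chac1 and Trib3, had the largest differences between groups among the 10, while Slc7a11 and Asns carry the same letters and were called in no comparison. Capitals mark the 8 matching bases, which read as the reverse complement where the match is on the opposite strand.
Chac1 (chr2:119350992-119351291, plus strand): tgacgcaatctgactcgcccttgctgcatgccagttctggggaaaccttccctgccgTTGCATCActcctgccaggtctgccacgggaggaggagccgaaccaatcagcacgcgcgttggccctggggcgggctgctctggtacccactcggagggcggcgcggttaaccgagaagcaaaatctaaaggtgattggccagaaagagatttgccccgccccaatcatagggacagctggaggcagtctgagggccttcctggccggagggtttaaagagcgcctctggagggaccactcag
Trib3 (chr2:152344011-152344310, minus strand): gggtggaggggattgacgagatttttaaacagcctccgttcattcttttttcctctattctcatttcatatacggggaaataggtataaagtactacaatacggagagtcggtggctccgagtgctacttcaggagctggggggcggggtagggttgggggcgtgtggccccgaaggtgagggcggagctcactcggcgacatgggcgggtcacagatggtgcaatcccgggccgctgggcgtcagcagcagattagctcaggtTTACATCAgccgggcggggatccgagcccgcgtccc
Slc7a11 (chr3:50443564-50443863, minus strand): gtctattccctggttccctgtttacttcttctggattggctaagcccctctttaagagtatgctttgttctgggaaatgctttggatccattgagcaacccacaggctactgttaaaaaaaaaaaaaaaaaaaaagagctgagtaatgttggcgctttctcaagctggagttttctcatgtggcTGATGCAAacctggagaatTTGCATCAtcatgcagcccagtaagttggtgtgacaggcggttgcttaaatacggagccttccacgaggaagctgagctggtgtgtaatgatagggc
Asns (chr6:7693160-7693459, minus strand): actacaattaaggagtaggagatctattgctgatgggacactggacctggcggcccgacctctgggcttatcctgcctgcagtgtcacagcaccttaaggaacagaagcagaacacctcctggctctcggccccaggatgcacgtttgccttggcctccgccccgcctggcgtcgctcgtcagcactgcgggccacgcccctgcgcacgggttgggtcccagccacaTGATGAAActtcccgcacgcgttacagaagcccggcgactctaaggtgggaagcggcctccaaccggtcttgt
The match lay 193 to 186 bases before the start in Chac1, 23 to 16 bases before it in Asns and 14 to 21 bases past it in Trib3. Slc7a11 had 2 matches, 66 to 59 and 47 to 40 bases before the start. A match is a run of letters and not a measured binding site, and its absence from the windows of the other 6 genes says only that these letters are not there.

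Libraries held 17.1 to 18.6 M counts in pBIC10, 17.8 to 19.1 M in pBIC and 12.6 to 14.3 M in YC. Levels are CPM, counts per M counts of a library, after TMM scaling. Calls required an adjusted p under 0.05 in edgeR's quasi-likelihood test, with Benjamini-Hochberg adjustment over all tested genes of a comparison. Of the genes the alleles act on, Il10 was lower in pBIC10 than in pBIC (log2 fold change -1.88, adjusted p = 0.00809), though pBIC10 overlapped YC. Trp53 was lower than in YC in pBIC10 (-2.10) and in pBIC (-2.60). Prdm1, which encodes Blimp1, was also lower than in YC in pBIC10 (-5.02) and in pBIC (-1.52). It differed between the lymphoma groups as well, though both carry the Blimp1 allele (-3.50, adjusted p = 5.63e-04). Ikbkb, which encodes IKK2, was higher than in YC in pBIC10 (1.47) and in pBIC (1.01). Of the counts on heavy chain variable segments, 67.4 to 70.5% fell on Ighv7-3 in pBIC10 and 51.6 to 59.1% on Ighv8-11 in pBIC, so clone and IL-10 status cannot be told apart. The same segment led in every library of a lymphoma group. The SD, SE and adjusted p of these groups may therefore measure spread within a clone and not between independent tumours. The pBIC10 libraries are new in this series and the others were re-analysed from an earlier one, so series and genotype cannot be told apart either. B cell markers were detected in every library; their summed level was 2807 to 4872 CPM in pBIC10, 2099 to 3796 CPM in pBIC and 8819 to 11234 CPM in YC. Germinal centre markers summed to 95.2 to 214 CPM in pBIC10, 74.0 to 90.1 CPM in pBIC and 1364 to 2027 CPM in YC. In bulk samples, fewer cells of a type and less RNA per cell cannot be told apart.

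Against YC, both lymphoma groups had less Atf4 and Ddit3 and more Phgdh. Between the lymphoma groups, pBIC10 had less Trib3, Chac1, Psat1 and Mthfd2, and Atf4 itself was not called. Of the 10 genes, 0 were called higher and 4 lower in pBIC10 against pBIC, where 15.6% of all genes were called higher and 15.1% lower. Trib3 and Chac1, 2 of these 4, had enough counts to be tested only through their levels in other groups. Chac1 did so only with the YC libraries included. In pBIC against YC, 3 were called higher and 2 lower, beside 26.4% and 27.7% of all genes. In pBIC10 against YC, 1 was called higher and 4 lower, beside 24.8% and 26.9% of all genes. The median log2 fold change of the 10 genes was -0.55, 0.17 and -0.45 in the same order of comparisons, and that of all genes lay between -0.01 and 0.02. The comparisons share libraries and are not independent.

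**Figure D1:**
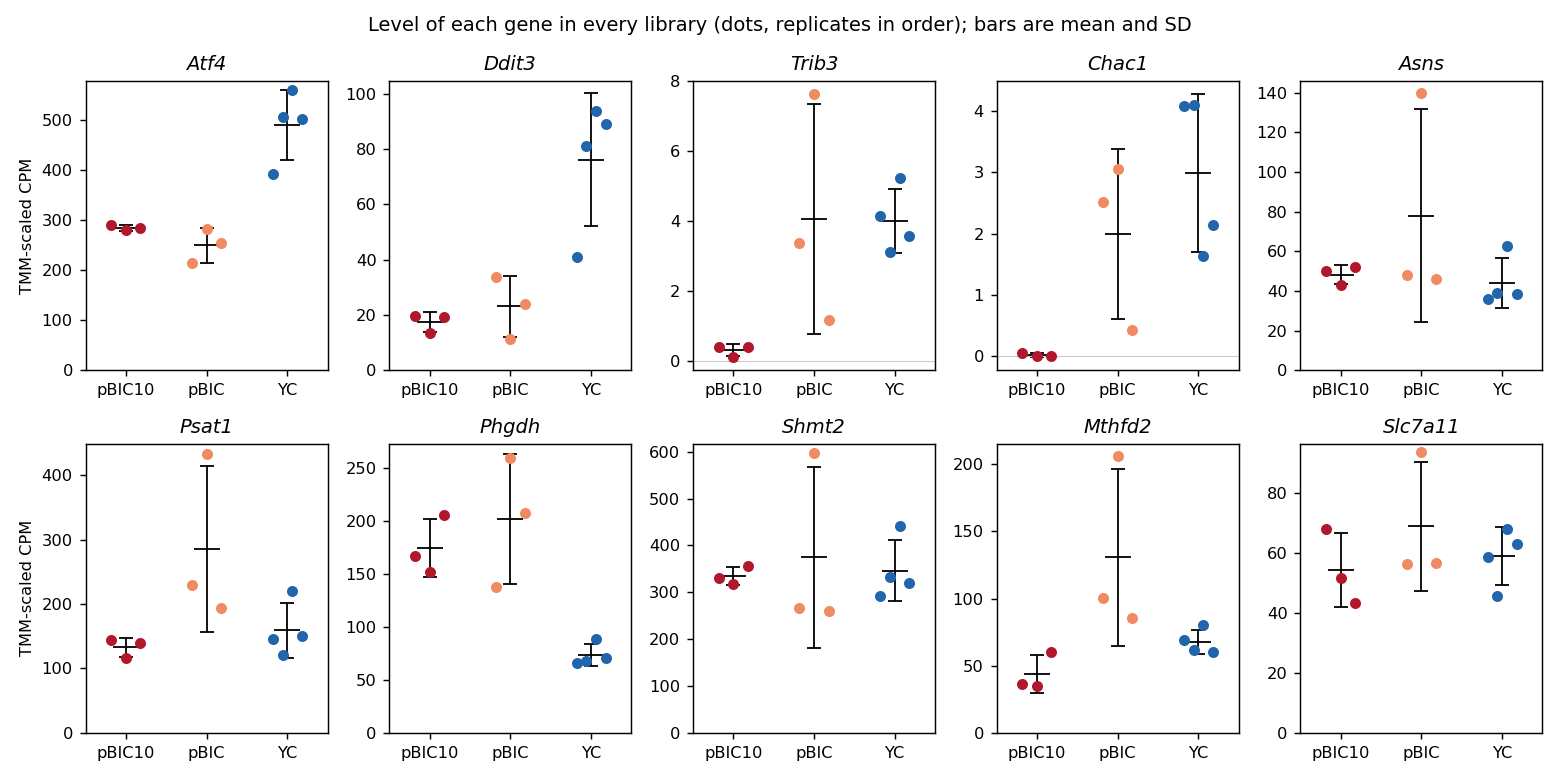
Level in TMM-scaled CPM (y axis, linear, a separate scale for each gene) of the 10 genes in each library of pBIC10, pBIC and YC; dots are libraries in replicate order, and bars show the mean and SD. The pBIC10 libraries lie below all others for Trib3 and Chac1, both lymphoma groups lie below YC for Atf4 and Ddit3 and above it for Phgdh, and pBIC replicate 2 stands highest of its group in every panel except that of Ddit3.

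Atf4 encodes the factor at the centre of the response. It stood at 291, 279.9 and 284 CPM in pBIC10, at 214, 283 and 254 CPM in pBIC, with 392, 507, 560.0 and 502 CPM in YC. Every lymphoma library lay below every YC library, and the lymphoma groups overlapped. The log2 fold change was -0.78 ± 0.16 (SE) in pBIC10 against YC (adjusted p = 0.00130) and -0.97 ± 0.16 in pBIC against YC (adjusted p = 2.99e-04). Between the lymphoma groups it was 0.19 ± 0.17 (adjusted p = 0.434).

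Ddit3 encodes CHOP, a C/EBP-family factor that promotes cell death when stress persists. Its level was 19.6, 13.4 and 19.4 CPM in pBIC10, 33.6, 11.4 and 24.1 CPM in pBIC and 40.9, 81.0, 93.5 and 88.9 CPM in YC. YC replicate 1 was the lowest of YC and still lay above all 6 lymphoma libraries. Ddit3 fell in pBIC10 against YC (-2.12 ± 0.37, adjusted p = 5.28e-04) and in pBIC against YC (-1.72 ± 0.36, adjusted p = 0.00188), and the lymphoma groups were not called apart (-0.40 ± 0.37, adjusted p = 0.452). In the GENCODE M21 annotation, 68 bases (3.97%) of the Ddit3 exons overlap those of Mars1 on the opposite strand; whether counting used strand is not given in the sources used here.

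Trib3 encodes a pseudokinase that CHOP and ATF4 induce and that binds the kinase AKT. It had 0.413, 0.117 and 0.410 CPM in pBIC10, 3.38, 7.63 and 1.18 CPM in pBIC and 4.15, 3.11, 5.23 and 3.57 CPM in YC. Counts behind these values were 7, 2 and 8 in pBIC10, against 22 to 135 in pBIC and 38 to 74 in YC, so the gene is sparse in pBIC10. All pBIC10 libraries lay below all others, while pBIC spanned the range of YC on both sides. Trib3 fell in pBIC10 against pBIC (-3.65 ± 0.67, adjusted p = 0.00131) and against YC (-3.64 ± 0.66, adjusted p = 5.07e-04). Without pBIC replicate 2, the highest library, the first of these values was -2.85 (adjusted p = 0.00464). In pBIC against YC the value was 0.01 (adjusted p = 0.985).

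Chac1 encodes an enzyme that degrades glutathione. It was at 0.059, 0 and 0 CPM in pBIC10, at 2.52, 3.05 and 0.428 CPM in pBIC, with 4.08, 4.09, 1.63 and 2.14 CPM in YC. The pBIC10 libraries together held 1 count, against 109 in pBIC and 158 in YC. The counts of 0 in pBIC10 replicates 2 and 3 allow levels of up to 0.176 and 0.154 CPM, set by 3 counts. The ratio of summed counts per effective library size was 0.00943 for pBIC10 over pBIC (exact 95% interval 0.000237 to 0.0537) and 0.00637 for pBIC10 over YC (0.000160 to 0.0360); these intervals cover counting error only. Both comparisons were called, with adjusted p = 7.06e-04 and 1.34e-04 in the same order, and their fitted log2 values of -6.24 and -6.82 depend on the small count added to a group near 0. Without pBIC10 replicate 1, the library with the single count, the fitted values were -8.02 and -8.59. Chac1 was not called in pBIC against YC (-0.57 ± 0.60, adjusted p = 0.435), where pBIC replicate 3 lay below every YC library and the other pBIC libraries lay within their range.

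Asns encodes asparagine synthetase, which makes asparagine from aspartate and glutamine. Its level was 50.1, 42.8 and 51.9 CPM in pBIC10, 47.8, 140.1 and 45.9 CPM in pBIC and 35.7, 38.9, 62.8 and 38.5 CPM in YC. The groups overlapped, apart from pBIC replicate 2, which stood far above the rest. No comparison was called: -0.69 ± 0.39 in pBIC10 against pBIC (adjusted p = 0.201), 0.82 ± 0.36 in pBIC against YC (adjusted p = 0.0711) and 0.13 in pBIC10 against YC (adjusted p = 0.779). With pBIC replicate 2 left out the first value was 0.01 (adjusted p = 0.982) and the second 0.15 (adjusted p = 0.604), while the second was called when pBIC replicate 1 (1.08, adjusted p = 0.0280), pBIC replicate 3 (1.09, adjusted p = 0.0245) or YC replicate 3 (1.04, adjusted p = 0.0364) was left out.

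Phgdh encodes phosphoglycerate dehydrogenase, the first enzyme of serine synthesis from a glycolytic intermediate. It stood at 167, 152 and 205 CPM in pBIC10, at 137, 259.6 and 207 CPM in pBIC, with 66.4, 67.6, 88.9 and 70.7 CPM in YC. All lymphoma libraries lay above all YC libraries and the lymphoma groups overlapped. Phgdh rose in pBIC10 against YC (1.25 ± 0.21, adjusted p = 2.81e-04) and in pBIC against YC (1.46 ± 0.21, adjusted p = 9.66e-05); between the lymphoma groups the value was -0.21 ± 0.22 (adjusted p = 0.521). It was the only one of the 10 called higher in both lymphoma groups against YC, in the fit given here and without any 1 library.

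Psat1 encodes phosphoserine aminotransferase, the enzyme after Phgdh. Its level was 144, 116 and 139 CPM in pBIC10, 229, 433 and 194 CPM in pBIC and 146, 121.6, 220.5 and 150.5 CPM in YC. The pBIC10 libraries lay below those of pBIC and overlapped YC, and pBIC replicate 3 lay below the highest YC library. Psat1 fell in pBIC10 against pBIC (-1.10 ± 0.29, adjusted p = 0.0121), a call lost without pBIC10 replicate 2 (-1.001, adjusted p = 0.0547). It rose in pBIC against YC (0.84 ± 0.27, adjusted p = 0.0179), but not without pBIC replicate 2 (0.46, adjusted p = 0.0925), YC replicate 1 (0.76, adjusted p = 0.0520) or YC replicate 2 (0.69, adjusted p = 0.0610). In pBIC10 against YC the value was -0.27 (adjusted p = 0.433).

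Shmt2 encodes the mitochondrial serine hydroxymethyltransferase, which splits serine into glycine and a folate-bound carbon unit. It was at 330.3, 318 and 357 CPM in pBIC10, at 267, 596 and 259.6 CPM in pBIC, with 292, 332, 441 and 320.2 CPM in YC. The groups overlapped in every comparison, and pBIC held both the highest and the lowest library. Values were -0.16 ± 0.28 in pBIC10 against pBIC (adjusted p = 0.709), 0.11 in pBIC against YC (adjusted p = 0.737) and -0.05 in pBIC10 against YC (adjusted p = 0.896). The first 2 changed sign without pBIC replicate 2, to 0.32 (adjusted p = 0.241) and -0.34 (adjusted p = 0.132), and were not called there either.

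Mthfd2 encodes a mitochondrial folate enzyme that oxidises the carbon unit released by Shmt2. It stood at 36.3, 34.6 and 60.0 CPM in pBIC10, at 100.2, 206 and 85.8 CPM in pBIC, with 69.5, 61.7, 80.0 and 60.5 CPM in YC. The 3 groups did not overlap, with pBIC10 lowest, YC between and pBIC highest, although pBIC10 replicate 3 came within 1 CPM of YC replicate 4. Mthfd2 fell in pBIC10 against pBIC (-1.58 ± 0.32, adjusted p = 0.00252). It rose in pBIC against YC (0.95 ± 0.29, adjusted p = 0.0146), a call lost without pBIC replicate 2 (0.51, adjusted p = 0.0780). In pBIC10 against YC it was not called (-0.64 ± 0.30, adjusted p = 0.0876), but was without pBIC replicate 2 (-0.61, adjusted p = 0.0255) or pBIC10 replicate 3 (-0.93, adjusted p = 0.0281).

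Slc7a11 encodes xCT, the chain of the antiporter that takes up cystine in exchange for glutamate and so feeds glutathione synthesis. It had 67.8, 51.5 and 43.4 CPM in pBIC10, 56.2, 93.7 and 56.6 CPM in pBIC and 58.7, 45.5, 68.0 and 63.0 CPM in YC. The groups overlapped in all comparisons and none was called (log2 fold changes -0.34 for pBIC10 over pBIC, 0.23 for pBIC over YC and -0.12 for pBIC10 over YC, adjusted p = 0.306, 0.410 and 0.692).

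**Figure D2:**
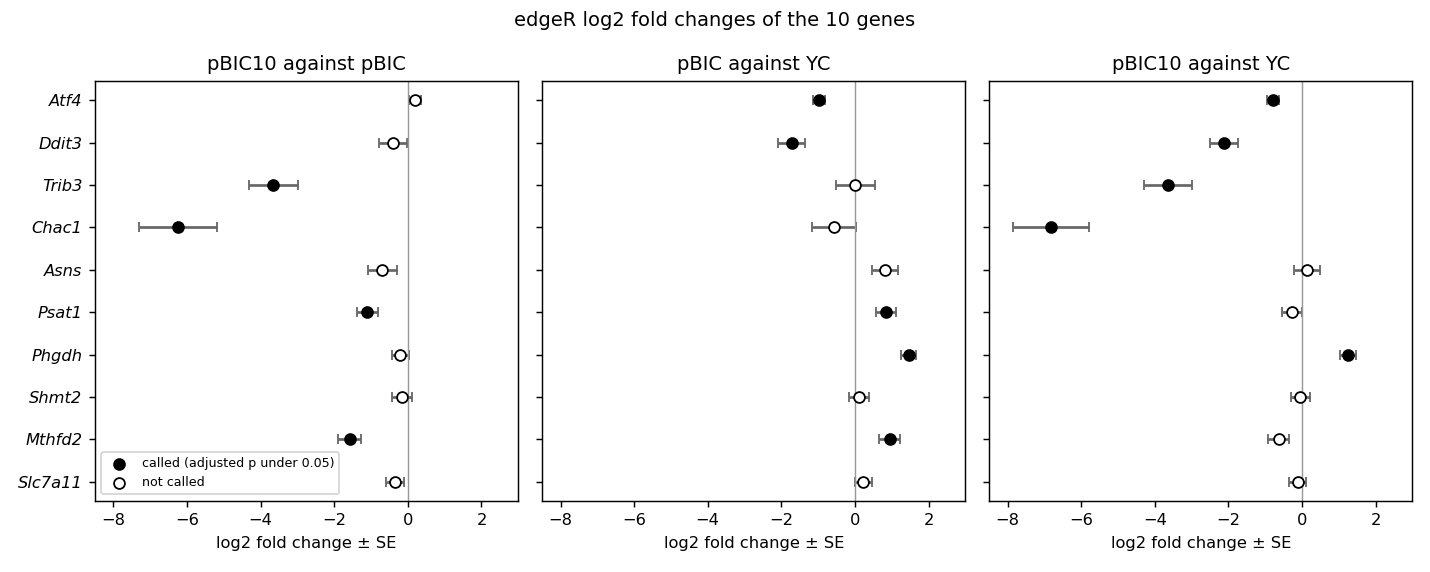
edgeR log2 fold change (x axis) of each of the 10 genes with bars of ± SE, in a panel for each comparison (pBIC10 and pBIC; pBIC and YC; pBIC10 and YC); filled points were called at an adjusted p under 0.05. Chac1 and Trib3 lie farthest below 0 in both pBIC10 panels, at -6.24 and -3.65 against pBIC, while Phgdh lies above 0 in both panels against YC.

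In pBIC10 against pBIC the 2 groups had no overlapping libraries for 4 of the 10 genes, against 41.8% of all genes. In pBIC against YC they did not overlap in 4 of 10, against 54.2%, and in pBIC10 against YC in 6 of 10, against 61.0%. Nothing is read from these counts. Trib3 and Chac1 are 2 of the 4 genes called lower in each comparison of pBIC10. Trib3 passed the filter through pBIC and YC, and Chac1 only with the YC libraries included.

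Set per kilobase of exon, which lets genes be compared with each other, Atf4 and Shmt2 had the highest levels of the 10. Atf4 averaged 120.8 ± 2.44 CPM per kb in pBIC10, 106 ± 14.8 in pBIC and 208 ± 30.0 in YC (SD, n = 3, 3 and 4). Shmt2 averaged 108 ± 6.39, 120.4 ± 61.8 and 111 ± 21.0 CPM per kb in the same groups. Phgdh averaged 70.3 ± 11.03 in pBIC10, 81.0 ± 24.7 in pBIC and 29.5 ± 4.23 in YC, so its level was nearer to that of Atf4 in both lymphoma groups than in YC. Trib3 and Chac1 lay lowest in every group, with means of 0.147 and 0.0120 CPM per kb in pBIC10, 1.91 and 1.22 in pBIC and 1.89 and 1.82 in YC.

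The genes whose levels followed Atf4 most closely over the 10 libraries were Gnl1, Ranbp3 and Ccdc84, with root mean square differences of centred log2 CPM of 0.075, 0.081 and 0.117, among 11828 genes with a mean of at least 5 CPM. Chac1, the most variable of the 10, was followed most closely by Prf1, Ebi3 and Gsap, at differences of 0.380, 0.566 and 0.583. Prf1 encodes perforin, a protein of cytotoxic T and NK cells, and averaged 0.404 CPM in pBIC10, 5.52 CPM in pBIC and 10.4 CPM in YC. Ebi3 and Gsap, like Prf1, were on none of the marker lists used here. Of the markers of T and NK cells, 10 of 14 were lower and 2 higher in pBIC10 against pBIC, and 13 were lower in pBIC10 against YC. Cd3e, for example, was at 0.176 to 0.708 CPM in pBIC10, 1.18 to 1.92 CPM in pBIC and 7.92 to 27.6 CPM in YC. The summed level of the 14 was 144 to 233 CPM in pBIC10, 97.0 to 134 CPM in pBIC and 425 to 666 CPM in YC. In pBIC10 the sum was carried mainly by Cd2 and Lck, at 78.3 to 191 and 36.5 to 57.7 CPM. These were the 2 markers called higher against pBIC, and whether they came from T and NK cells here was not tested. Myeloid markers had 3 of 14 lower in pBIC10 against pBIC and 13 lower against YC, with sums of 29.5 to 39.3 CPM in pBIC10, 130 to 181 CPM in pBIC and 175 to 260.4 CPM in YC; Fcgr1 and Marco had 0 counts in all pBIC10 libraries. No marker of the T and NK list was at 0 in all libraries of a group. Of these lists, 12 T and NK markers and 10 myeloid markers were also lower (1 myeloid marker higher) in pBIC against YC. Chac1 (-0.57 ± 0.60) and Trib3 (0.01 ± 0.52) were not called there, and falls of the size of these SE are not excluded. The median log2 fold change there was -2.76 for the T and NK markers and -2.31 for the myeloid markers. Erythroid and platelet markers had 0 of 10 called in pBIC10 against pBIC, 3 higher and 3 lower in pBIC10 against YC and 3 lower in pBIC against YC. Their sum, carried by the haemoglobin genes, was 632 to 1630.3 CPM in pBIC10, 33.3, 127 and 664 CPM in pBIC replicates 1, 2 and 3, and 192 to 558 CPM in YC; pBIC replicate 3 was also the lowest of pBIC in Trib3 and Chac1. The part of these cells in the levels of Chac1 and Trib3 was not tested.

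**Figure D3:**
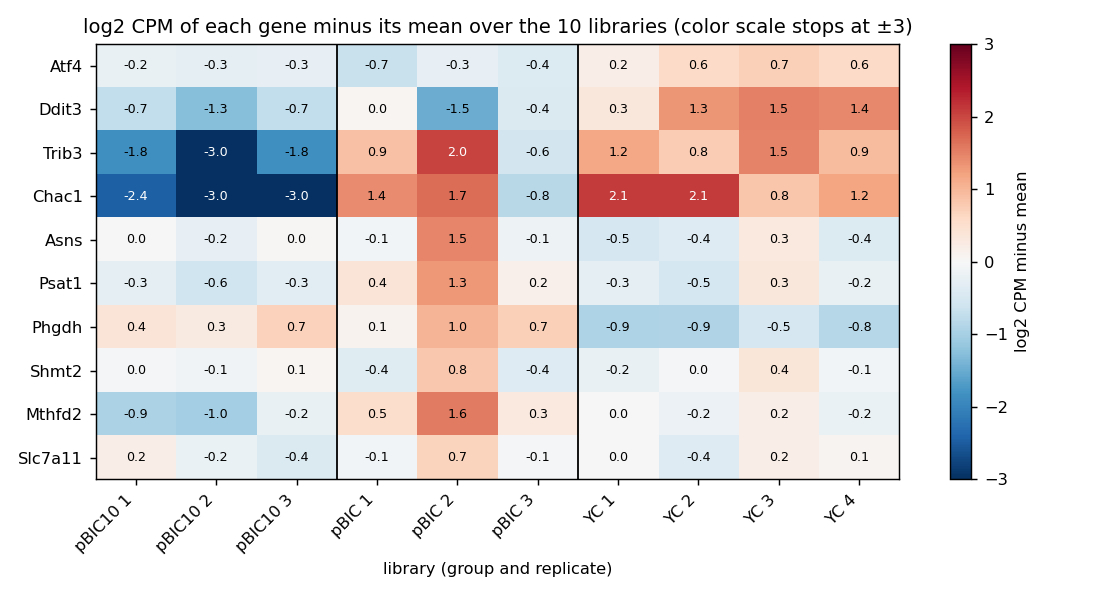
Centred log2 CPM (colour, with the value printed in each cell) of the 10 genes, one row a gene and one column a library, in the order pBIC10, pBIC and YC. Chac1 and Trib3 are darkest blue in pBIC10, Atf4 and Ddit3 are red in YC, and the column of pBIC replicate 2 is red in 8 of its 10 rows.

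Within pBIC, replicate 2 had the highest level of most of the 10 genes. It was the highest of the 3 libraries in 9 of the 10 genes, where it was highest in 37.1% of all genes, and the lowest in Ddit3. It lay at least 2-fold above both other pBIC libraries in 4 of the 10, Trib3, Asns, Shmt2 and Mthfd2, against 1.54% of all genes. Its level over the mean of the other 2 was 3.35-fold for Trib3, 2.99-fold for Asns, 2.26-fold for Shmt2 and 2.22-fold for Mthfd2, but 1.21-fold for Atf4 and 0.396-fold for Ddit3. Among 20 other ATF4 target genes tested, 5 were at least 2-fold above both others in this library: Eif4ebp1, Pck2, Pycr1, Gpt2 and Cth. Of these, Pck2, Pycr1, Gpt2 and Cth encode enzymes of amino acid or gluconeogenic metabolism. Atf3 (-2.43), Aldh1l2 (-1.40), Ppp1r15a (-0.75) and Ddit4 (-0.35) lay below their mean log2 CPM in the other 2 libraries. The library was the highest of pBIC in 12 of the 20. It was also the highest of pBIC in 18 of 20 proliferation genes, 15 of 19 tRNA synthetases and 15 of 20 genes of the IRE1 and ATF6 branches, and its summed B cell markers were 2099 CPM, against 3796 and 2110 CPM in replicates 1 and 3. The part of these in the levels of the 10 genes was not tested. In pBIC replicate 3, Trib3 and Chac1 lay at least 2-fold below both other libraries, 2 of the 10 genes against 4.88% of all genes. Within YC, replicate 3, the male, was highest in 9 of the 10 genes, against 27.1% of all genes, with 0 of them 2-fold above the rest. It was also the highest of YC in 14 of 20 proliferation genes and 16 of 19 tRNA synthetases. Of the other ATF4 targets it was highest in 5 of 20, and of the IRE1 and ATF6 branches in 1 of 20.

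**Figure D4:**
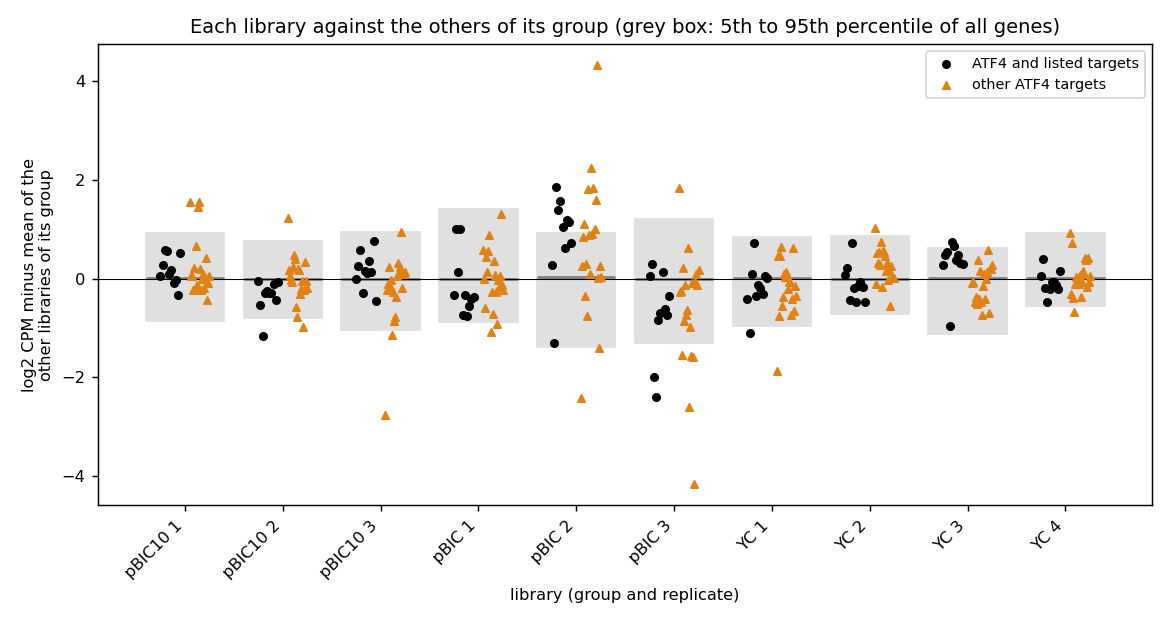
log2 CPM of each gene in a library minus its mean in the other libraries of the same group (y axis), for Atf4 and the 9 listed targets (black dots) and other ATF4 targets (orange triangles); each grey box spans the 5th to 95th percentile of all tested genes. In pBIC replicate 2, 9 of 10 black dots lie above 0, and in YC replicate 3 likewise 9 of 10, though closer to 0.

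Other ATF4 targets were described from a list of 24 genes, of which 20 were tested. In pBIC10 against pBIC, 2 were higher and 6 lower, with a median of -0.23; without pBIC10 replicate 1 the counts were 0 and 3, and without pBIC10 replicate 2 or 3, any pBIC library or YC replicate 4 only 1 was higher. Atf5, an ATF4-related factor of the mitochondrial stress response, fell to 8.84 ± 0.853 CPM in pBIC10, against 31.5 ± 3.86 CPM in pBIC (-1.83 ± 0.22, adjusted p = 5.61e-05). Sesn2, which restrains mTORC1 when leucine is short, fell to 3.35 ± 0.375 CPM in pBIC10, against 10.7 ± 3.42 CPM in pBIC (-1.67 ± 0.31, adjusted p = 0.00124). Against YC, 10 were higher and 4 lower in pBIC (median 0.91) and 4 higher and 6 lower in pBIC10 (median -0.13). Cbs, which makes cystathionine from serine and homocysteine, averaged 11.1 ± 1.98 CPM in pBIC10 and 10.3 ± 0.280 CPM in pBIC, against 0.581 ± 0.199 CPM in YC, with log2 fold changes of 4.25 and 4.13 (adjusted p = 8.25e-07 and 1.06e-06). Xpot, the exporter of transfer RNA from the nucleus, also rose in pBIC10 (1.55 ± 0.14) and in pBIC (1.80 ± 0.14) against YC. Ddit4, an inhibitor of mTORC1, rose in pBIC10 against YC to 54.1 ± 4.86 CPM, against 17.2 ± 6.03 CPM in YC (adjusted p = 1.20e-04). Sesn2 (-2.34 ± 0.30) and Atf5 (-0.88 ± 0.21) were called lower in pBIC10 than in YC, while Atf5 was called higher in pBIC (0.95 ± 0.20). Herpud1 was called lower than in YC in pBIC10 (-0.60 ± 0.15) and in pBIC (-1.10 ± 0.16).

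Upstream of Atf4, the list of eIF2α kinases, phosphatases and their regulators had 3 of 16 genes higher and 4 lower in pBIC10 against pBIC (median -0.02); 2 were lower without pBIC10 replicate 1 or pBIC replicate 2, and 1 without pBIC10 replicate 2. Ppp1r15b, the constant subunit that directs dephosphorylation of eIF2α, rose to 274 ± 26.1 CPM in pBIC10, against 134 ± 7.49 CPM in pBIC (1.03 ± 0.15, adjusted p = 2.25e-04). Gcn1, which activates the amino acid-sensing kinase GCN2, rose as well (0.86 ± 0.18, adjusted p = 0.00358). Dele1, which relays mitochondrial stress to the kinase HRI, fell (-0.81 ± 0.21, adjusted p = 0.00928). Against YC, 6 were higher and 4 lower in pBIC10 (median 0.31) and 6 higher and 2 lower in pBIC (median -0.07; 3 higher without YC replicate 2, 4 lower without pBIC replicate 2). Eif2ak3, which encodes PERK, the kinase that senses unfolded proteins, fell to 34.4 ± 1.66 CPM in pBIC10 and 30.8 ± 9.03 CPM in pBIC, against 152 ± 41.7 CPM in YC (-2.15 and -2.31, adjusted p = 1.70e-05 and 1.14e-05). Ppp1r15a, the stress-induced counterpart of Ppp1r15b, is itself an ATF4 target. It fell to 194 ± 75.7 CPM in pBIC10 and 110.3 ± 43.1 CPM in pBIC, against 721 ± 214 CPM in YC (adjusted p = 7.84e-04 and 9.34e-05).

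The IRE1 and ATF6 branches, which restore protein folding in the endoplasmic reticulum beside PERK, had 1 of 20 genes higher and 10 lower in pBIC10 against pBIC (median -0.83), with 16 lower without pBIC replicate 3. Creld2, a folding factor that ATF6 induces, fell to 23.5 ± 2.78 CPM in pBIC10, against 170 ± 47.8 CPM in pBIC (-2.86 ± 0.25, adjusted p = 5.46e-06). Dnajb9, a co-chaperone of the lumenal chaperone BiP, was the gene that rose, to 157 ± 12.6 CPM in pBIC10 against 31.4 ± 10.0 CPM in pBIC (2.32 ± 0.24, adjusted p = 1.90e-05). Against YC, 1 was higher and 13 lower in pBIC10 (median -0.83) and 3 higher and 5 lower in pBIC (median 0.07; 5 higher without pBIC replicate 3). Plasma cell markers, which share Xbp1 and Derl3 with this list, had 1 of 10 higher and 3 lower in pBIC10 against pBIC; against YC, 0 were higher and 8 lower in pBIC, and 0 and 7 in pBIC10. Their part in these counts was not tested.

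Phgdh, Psat1, Shmt2 and Mthfd2 work among other enzymes and carriers of serine, glycine and folate metabolism. Of 19 of these, 10 were higher and 2 lower in pBIC10 against YC (median 0.48; 1 lower without pBIC10 replicate 1) and 11 higher and 2 lower in pBIC against YC (median 0.71). In pBIC10 against pBIC, 2 were higher and 2 lower (median -0.08); without any 1 library the counts ran from 1 to 2 higher and from 0 to 5 lower. Slc25a32, the carrier that brings folate into mitochondria, rose to 93.1 ± 6.20 CPM in pBIC10, against 48.0 ± 8.44 CPM in pBIC (0.96 ± 0.18, adjusted p = 0.00131) and 23.4 ± 2.74 CPM in YC (1.99 ± 0.17, adjusted p = 1.65e-06). Gcsh, a carrier protein of the glycine cleavage system, averaged 46.4 ± 0.429 CPM in pBIC10 and 49.0 ± 12.5 CPM in pBIC, against 12.2 ± 3.67 CPM in YC (1.92 and 1.999, adjusted p = 4.23e-05 and 3.25e-05). Gart, an enzyme of purine synthesis that uses folate carbon, rose by 1.01 ± 0.13 in pBIC10 and 1.34 ± 0.13 in pBIC against YC (adjusted p = 5.27e-05 and 7.53e-06).

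Amino acid transporters other than Slc7a11 moved in both directions. In pBIC10 against pBIC, 5 of 16 were higher and 4 lower (median -0.09); 3 were higher without pBIC10 replicate 1, pBIC10 replicate 2 or pBIC replicate 2, and 2 lower without pBIC10 replicate 2. Slc7a7, a light chain that exchanges cationic and neutral amino acids, fell to 7.59 ± 2.07 CPM in pBIC10, against 64.1 ± 27.1 CPM in pBIC (-3.07 ± 0.34, adjusted p = 3.41e-05). Slc3a2, the heavy chain that Slc7a11 and Slc7a7 both need, was lower by less (-0.61 ± 0.20, adjusted p = 0.0322), and was not called without any 1 of the pBIC10 libraries, pBIC replicate 2 or YC replicate 2 (adjusted p of up to 0.106). Slc38a2, a carrier of small neutral amino acids, rose to 365 ± 43.7 CPM in pBIC10, against 176 ± 42.1 CPM in pBIC (1.05 ± 0.22, adjusted p = 0.00352). Slc6a9, a glycine transporter, averaged 30.1 ± 4.45 CPM in pBIC10 and 17.3 ± 8.40 CPM in pBIC, against 1.69 ± 0.942 CPM in YC (4.15 and 3.35, adjusted p = 8.37e-06 and 3.72e-05). The whole list had 5 higher and 4 lower in pBIC10 against YC and 5 higher and 3 lower in pBIC against YC.

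Cytosolic aminoacyl-tRNA synthetases, several of which ATF4 induces, had 12 of 19 higher and 0 lower in pBIC against YC (median 0.74; 1 lower without pBIC replicate 3) and 11 higher and 3 lower in pBIC10 against YC (median 0.61). In pBIC10 against pBIC, 0 were higher and 3 lower (median -0.01), with 4 higher without pBIC replicate 2, 1 higher without pBIC10 replicate 3 or pBIC replicate 3, and 6 lower without pBIC replicate 1. Kars, for lysine, averaged 448 ± 17.5 CPM in pBIC10 and 548 ± 106 CPM in pBIC, against 192 ± 16.2 CPM in YC. Cars, for cysteine, fell to 32.1 ± 5.30 CPM in pBIC10, against 80.7 ± 33.8 CPM in pBIC (-1.33 ± 0.27, adjusted p = 0.00225) and 88.5 ± 14.8 CPM in YC (-1.46 ± 0.26, adjusted p = 3.98e-04). Aars, for alanine, fell to 119.7 ± 2.25 CPM in pBIC10, against 194 ± 19.7 CPM in pBIC (adjusted p = 0.00865) and 234 ± 43.4 CPM in YC (adjusted p = 3.45e-04).

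NRF2 is a transcription factor of the oxidative stress response, and the list of its targets and regulator Keap1 together with glutathione genes had 1 of 16 higher and 6 lower in pBIC10 against pBIC (median -0.48; 2 higher without pBIC replicate 3). Gclc, the catalytic subunit of the first enzyme of glutathione synthesis, rose to 99.9 ± 6.02 CPM in pBIC10, against 46.2 ± 11.7 CPM in pBIC (1.11 ± 0.23, adjusted p = 0.00312). Txnrd1, the cytosolic thioredoxin reductase, fell to 34.4 ± 2.44 CPM in pBIC10, against 106 ± 14.7 CPM in pBIC (-1.63 ± 0.16, adjusted p = 1.17e-05). Against YC, 3 were higher and 5 lower in pBIC10 (median 0.14; 3 lower without YC replicate 1 or 2) and 6 higher and 3 lower in pBIC (median 0.28; 1 lower without YC replicate 2).

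Trib1 and Trib2, the relatives of Trib3, were higher in pBIC10 than in pBIC. Trib1 rose to 509 ± 7.69 CPM in pBIC10, against 63.8 ± 60.7 CPM in pBIC (2.99 ± 0.54, adjusted p = 0.00151) and 49.1 ± 11.9 CPM in YC (3.37 ± 0.49, adjusted p = 1.65e-04). Trib2 averaged 63.5 ± 6.80 CPM in pBIC10, 13.8 ± 11.6 CPM in pBIC and 101.2 ± 19.4 CPM in YC. It was called higher in pBIC10 against pBIC (2.20 ± 0.53, adjusted p = 0.00895) and lower in pBIC against YC (-2.87 ± 0.53, adjusted p = 8.61e-04; -3.69 without pBIC replicate 3), and was not called in pBIC10 against YC (-0.67 ± 0.48, adjusted p = 0.262). Without pBIC replicate 3 the values against pBIC were 4.14 for Trib1 (adjusted p = 1.85e-06) and 3.02 for Trib2 (adjusted p = 0.00192). Akt1, which encodes the kinase that TRIB3 binds, rose to 1559 ± 244 CPM in pBIC10, against 244 ± 67.1 CPM in pBIC (2.67 ± 0.23, adjusted p = 4.98e-06) and 286 ± 48.6 CPM in YC (2.44 ± 0.21, adjusted p = 1.90e-06). The list of CHOP and TRIB partners from which they come had 4 of 11 higher and 1 lower in pBIC10 against pBIC.

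**Figure D5:**
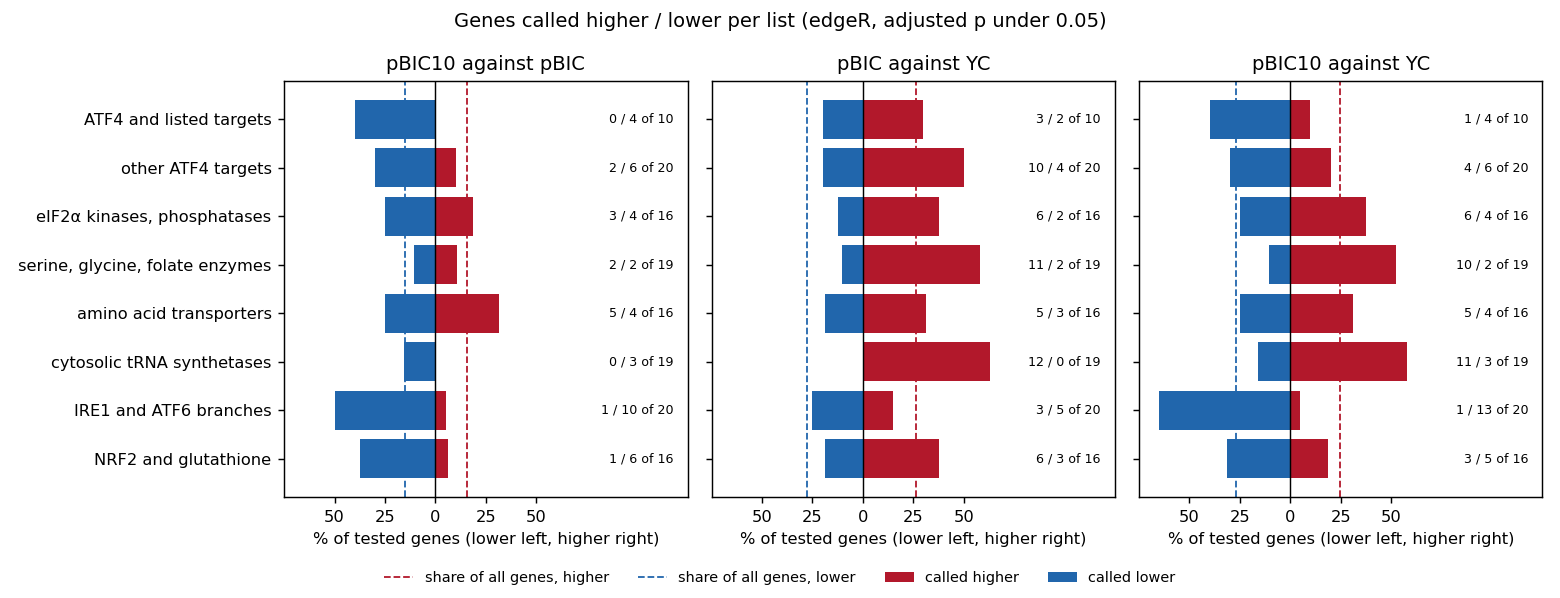
Share of the tested genes of each list called lower (bars to the left, % on the x axis) or higher (bars to the right) in each comparison, with counts as higher / lower of tested at the right; dashed lines mark the shares over all genes. ATF4 and its listed targets have 0 higher and 4 lower of 10 in pBIC10 against pBIC, and the tRNA synthetases 12 higher and 0 lower of 19 in pBIC against YC.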

How the data were processed

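Poly(A) RNA of sorted cells was sequenced to 50 nt from 1 end, per the labels' protocols. For each gene and library the authors deposited a raw count, made with featureCounts after FastQC on GRCm39, per the submitters' processing notes. Not given in the sources used here are the aligner, its version, the annotation and the strand setting. Every column matched a sample, with 0 left over.

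Genes were filtered with filterByExpr, scaled by TMM and fitted with edgeR 4.0.16 (R 4.3.3; quasi-likelihood, robust, two-sided F test), all 10 libraries in 1 fit with 1 coefficient per group. P-values were adjusted by Benjamini-Hochberg over the 17718 genes tested in each of 3 comparisons. Every adjusted p is from this fit unless a setting is named. The SE was approximated as log2 fold change over root F. The labels name separate mice, but the lymphoma libraries of a group shared their leading heavy chain segment and may not be independent tumours. The pipeline was tested on simulated data. log2 CPM used a prior count of 2. Intervals are exact Clopper-Pearson and cover counting error only.

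The 10 genes and the other lists were chosen with earlier results of these data known, and no list was tested as a set. In each list and direction the 4 called genes of smallest adjusted p could be named; which of these the text gives was decided with their values in view. Library sums of markers and the 5 genes of pBIC replicate 2 were looked at after values were seen. RefSeq promoter windows (GRCm38.p6) matched all 10 genes by symbol, and exon lengths are from GENCODE M21. Besides 3 other scalings, the alternatives included DESeq2 1.42.0, limma-voom (limma 3.58.1), other filters and thresholds, 2 groups only, sex as a covariate, females only, no immunoglobulin or T cell receptor genes, and leaving out each library. Figures used matplotlib 3.10.9.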

Additional observations from a re-analysis of the deposited data

Results flagged for a closer look

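Asns in YC replicate 3, the male, stood at 62.8 CPM, against 35.7, 38.9 and 38.5 CPM in the other YC libraries. The gap to the nearest of them was 0.883 of the group's whole range (Dixon's ratio), above its 95% critical value for 4 samples. The 10 genes were checked in YC alone, since groups of 3 are too small, and chance alone puts about 1 in 20 such groups over the critical value. Without this library Asns was called higher in pBIC against YC (1.04, adjusted p = 0.0364), and in pBIC10 against YC it was not called. With pBIC replicate 2 left out instead, the value in pBIC against YC was 0.15 (adjusted p = 0.604).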

How the results depend on the processing

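No paired analysis was possible because the labels give each mouse its own number and no number is shared between groups. With 1 library left out, the genes of the 10 called in pBIC10 against pBIC numbered 0 to 0 higher and 3 to 4 lower. In pBIC against YC they numbered 1 to 4 higher and 2 to 2 lower, and in pBIC10 against YC 1 to 1 higher and 4 to 5 lower. A minimum mean of 5 CPM removes Trib3 and Chac1 and left 2 lower in each pBIC10 comparison. In pBIC against YC, 1 was higher at an adjusted p under 0.01 and 1 higher and 1 lower when 2-fold was also required. Of 683 log2 fold changes of the 10 genes over 23 alternatives, 645 kept direction and side of the threshold, 12 lost the call, 9 gained it and 17 changed sign; none of the 17 was called, and the cause was not tested. With 1 library left out, in pBIC10 against pBIC Asns ran from -0.95 to 0.011 and Shmt2 from -0.36 to 0.32. In pBIC against YC, Trib3 ran from -0.76 to 0.45, Shmt2 from -0.34 to 0.32 and Slc7a11 from -0.00071 to 0.35. In pBIC10 against YC, Shmt2 ran from -0.14 to 0.083 and Slc7a11 from -0.30 to 0.034. Leaving out pBIC replicate 2 turned 5 of these signs. Trib3 in pBIC against YC was -0.042 with RLE size factors, -0.026 with library totals, -0.029 with DESeq2, -0.35 with limma-voom and -0.018 without immunoglobulin and T cell receptor genes. In females only, Shmt2 was 0.057 and Slc7a11 0.11 in pBIC10 against YC. Asns was called in pBIC against YC with sex as a covariate (0.98, adjusted p = 0.0377) and in females only (1.06, adjusted p = 0.0411), and Mthfd2 in pBIC10 against YC with 2 groups only (-0.65, adjusted p = 0.0178) and with sex as a covariate (-0.72, adjusted p = 0.0422). Chac1 gave no value for pBIC10 against pBIC in the fit of 2 groups, because it passed the filter on low counts only with the YC libraries. Depth limits Trib3 and Chac1 in pBIC10, where 17 counts and 1 count stand behind the groups. No scaling moved the median of all genes by over 0.1.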

Other observations

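Immediate early and heat shock genes, which respond to stimulation and to handling of cells, had 12 of 18 lower and 1 higher in pBIC10 against YC (median -1.51) and 15 lower and 0 higher in pBIC against YC (median -2.50; 1 higher without pBIC replicate 3). Hspa1a, an inducible chaperone, averaged 0.549 ± 0.347 CPM in pBIC10 and 1.499 ± 1.30 CPM in pBIC, against 75.7 ± 47.2 CPM in YC (-7.10 and -5.66, adjusted p = 5.74e-05 and 1.32e-04); the first value was -7.70 without pBIC10 replicate 1 and the second -6.58 without pBIC replicate 2. In pBIC10 against pBIC, 7 were higher and 1 lower, with 4 higher without pBIC10 replicate 1 or 2.

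Myc, which encodes a transcription factor of growth that shares many biosynthetic targets with ATF4, averaged 2046 ± 1013 CPM in pBIC10 and 742 ± 97.6 CPM in pBIC, against 310 ± 102 CPM in YC. It rose in pBIC10 against pBIC (1.46 ± 0.33, adjusted p = 0.00552), in pBIC against YC (1.26 ± 0.30, adjusted p = 0.00394) and in pBIC10 against YC (2.72 ± 0.31, adjusted p = 2.53e-05). Of the 10 genes, Trib3, Chac1, Psat1 and Mthfd2 were called lower in pBIC10 than in pBIC, and 0 were called higher. Of all genes, 15.1% were called lower and 15.6% higher there. Trib3 and Chac1 had enough counts to be tested only through their levels in other groups. Phgdh was called higher than in YC in both lymphoma groups (1.25 in pBIC10 and 1.46 in pBIC), and Psat1 and Mthfd2 in pBIC only. Atf4 and Ddit3 were called lower than in YC in both lymphoma groups, and Trib3 and Chac1 in pBIC10 only. Against YC, 24.8% of all genes were called higher and 26.9% lower in pBIC10, and 26.4% and 27.7% in pBIC. Whether Myc levels bear on the 10 genes was not tested.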
